A study of Homo sapiens with 6 samples.

Results

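The genes described here are 9 members of the p53 pathway, namely MDM2, MDM4, CDKN1A, BTG2, SESN1, PLK2, RRM2B, TP53INP1 and ZMAT3, chosen by their gene symbols among 26255 genes. RNA was sequenced from 22RV1 cells, a human line of castration-resistant prostate cancer, grown in full medium with 10% FBS and treated for 24 h with vehicle (DMSO, 3 samples) or 10 nM bruceantin (BCT, a quassinoid, 3 samples). All results thus come from 1 cell line, 1 dose and 1 time, and the labels do not say whether the samples of a group were separate cultures, so the p-values measure only the spread between these samples. Each value is an FPKM (fragments per kilobase of transcript, scaled to the mapped reads of the sample), a level per length.

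p53 is a transcription factor that stress signals stabilize, and its targets halt the cell cycle, repair DNA, reset metabolism or kill the cell. MDM2, a ubiquitin ligase, and its relative MDM4 bind p53 and restrain it, and because MDM2 is itself a p53 target the 2 proteins form a feedback loop. The other 7 genes are long known as direct targets. CDKN1A encodes p21, an inhibitor of cyclin-dependent kinases. BTG2 is an antiproliferative protein that also recruits mRNA deadenylases, and PLK2 is a polo-like kinase. SESN1 restrains mTORC1 signaling, RRM2B is a subunit of ribonucleotide reductase, TP53INP1 is a nuclear stress protein that also acts in autophagy, and ZMAT3 is an RNA-binding zinc finger protein. Only RNA was measured, so the data hold no level of p53 protein.

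The DNA sequence that p53 binds is a pair of decamers, each with the letters CNNG at its center. The consensus of 20 bases, without a spacer and with the 4 C and G letters of both centers fixed, was searched within 2500 bases on either side of the start of each gene on hg19. It reads the same on both strands. At most 2 mismatches at the other positions were allowed, and such a match was found in 6 of the 9 genes and in 3.41% of the 11072 tested genes with a full window. Most of the 9 genes are known p53 targets, so this count is a description and no test was made. The matches are shown because genes with matches of equal quality differed in their response. They are printed 5′ to 3′ on the strand of the gene, with the fixed C and G letters in capitals.
PLK2: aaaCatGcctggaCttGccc
ZMAT3: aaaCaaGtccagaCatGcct
CDKN1A: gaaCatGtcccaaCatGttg
MDM2: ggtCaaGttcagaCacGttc
BTG2: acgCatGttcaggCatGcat
The sites of PLK2 (chr5:57758101-57758120, 2154 bases upstream of the gene start) and ZMAT3 (chr3:178787976-178787995, 1661 bases downstream, in an intron) had 0 mismatches, with distances counted to the first base of the site. The site of CDKN1A (chr6:36644226-36644245) began 11 bases before the start of the gene and ran across it, in an untranslated exon of another annotated transcript. The start used for each gene is the outer end of its deposited span. It need not be the main start of transcription, and starts of other transcripts were not used. The site of MDM2 (chr12:69202703-69202722) lay in an intron, 751 bases downstream of the start. The site of BTG2 (chr1:203272770-203272789) lay 1894 bases upstream, and each of these 3 had 2 mismatches. RRM2B had a match with 1 mismatch, 2259 bases downstream of its start. A match with at most 2 mismatches was present in 4.47% of 1542 genes called higher, 3.63% of 2009 genes called lower and 3.14% of 7521 genes not called. With 3 mismatches allowed the shares were 20.6%, 21.9% and 21.3%. A match is no evidence of binding, and no match in this window, as for MDM4, SESN1 and TP53INP1, says nothing about sites elsewhere.

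BCT treatment split the 9 genes. PLK2, BTG2 and CDKN1A, the 3 genes grouped here under arrest, rose the most, and MDM2 rose less, by 1.87-fold. The grouping was made with earlier results of these data known, so its match with the response is no finding. MDM4, RRM2B, SESN1, ZMAT3 and TP53INP1 did not reach the fold change threshold in either direction. Genes were called where the log2 fold change passed 0.85 in size and the false discovery rate (FDR) lay under 0.05, from limma on log2(FPKM + 0.1) over the 12729 genes whose mean reached 1 FPKM, which include all 9. Thus 4 of the 9 genes were called higher and 0 lower, where 13.9% of all tested genes were called higher and 17.8% lower. With the FDR alone 8 of the 9 genes passed, where 82.1% of all tested genes did. The samples of the groups did not overlap for 7 genes with higher and 1 gene with lower values in BCT, where 41.0% and 44.3% of all tested genes were apart in these directions. The median log2 fold change was 0.23 in the 9 genes and -0.04 in all tested genes. With 3 samples a group the smallest p of an exact permutation test is 0.1, so the tests of single genes rest on limma, with Benjamini-Hochberg adjustment over all tested genes.

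**Figure D1:**
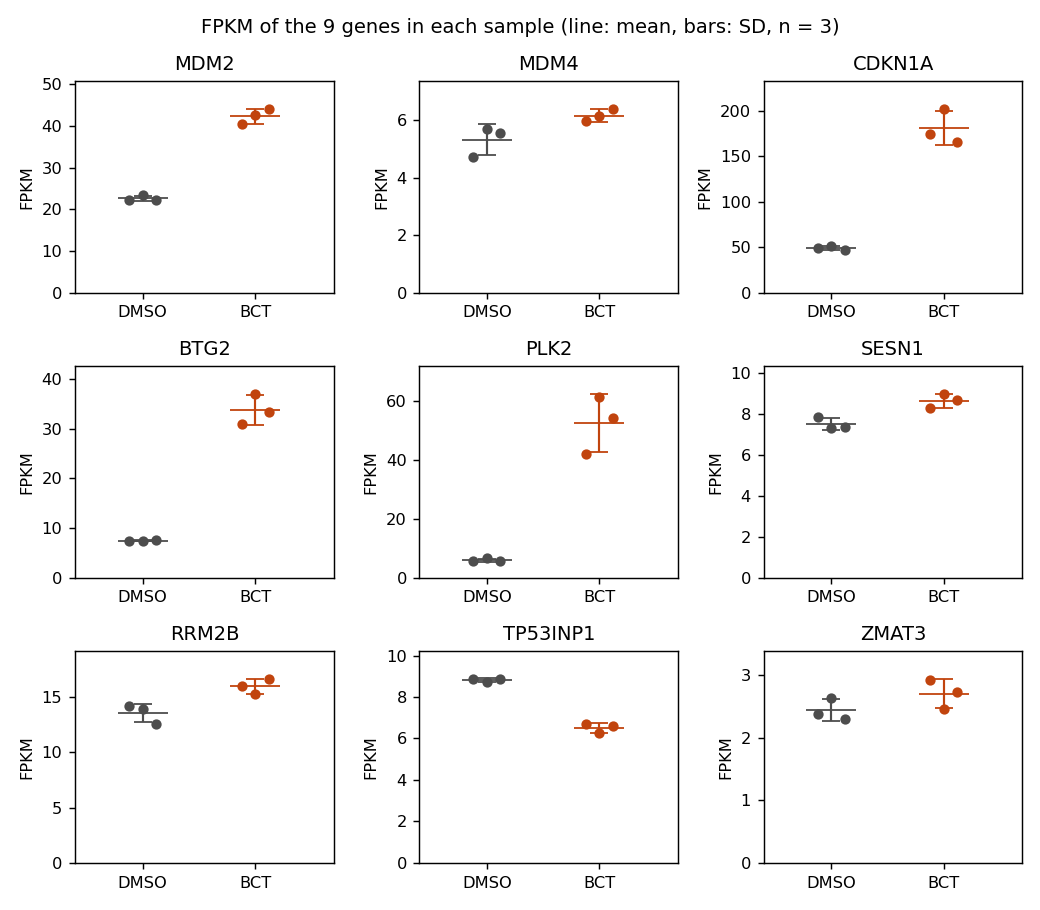
FPKM of each of the 9 genes (vertical axes, from 0) in the 3 DMSO and the 3 BCT samples (points, in the order of replicates 1 to 3), with the mean (line) and SD (bars). The BCT samples of PLK2, BTG2, CDKN1A and MDM2 lie well above the DMSO samples, those of TP53INP1 lie below them, and those of ZMAT3 overlap them.

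PLK2 had the largest rise of the 9 genes. Its FPKM was 5.68, 6.56 and 5.74 with DMSO and 41.8, 61.5 and 54.1 with BCT, means of 5.99 ± 0.493 and 52.5 ± 9.93 (SD, n = 3 each). The groups were far apart, and the BCT samples differed among themselves, with replicate 1 lowest and replicate 2 highest. PLK2 thus rose 8.75-fold (log2 fold change 3.09 with an SE of 0.13, limma adjusted p = 6.09e-07), and 0.668% of the tested genes had a larger one. PLK2 lies on chromosome 5 from 57749810 to 57755966, on the minus strand.

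In the DMSO samples BTG2 stood at 7.47, 7.34 and 7.50 FPKM, against 30.9, 37 and 33.3 FPKM in the BCT samples. The DMSO samples were nearly equal, and all 3 BCT samples stood well above them. Mean levels were 7.43 ± 0.0864 and 33.7 ± 3.07 FPKM (SD, n = 3 each). BTG2 thus rose 4.54-fold (log2 fold change 2.16 with an SE of 0.07, limma adjusted p = 2.76e-07). The gene lies on chromosome 1 from 203274664 to 203278729.

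CDKN1A, the most abundant of the 9 genes in both groups, was at 49.2, 51.3 and 47.2 FPKM with DMSO. With BCT it was at 174.9, 202.2 and 166.0 FPKM. Replicate 2 was again the highest BCT sample, as for PLK2 and BTG2. Its means of 49.3 ± 2.03 and 181.0 ± 18.9 FPKM (SD, n = 3 each) gave a 3.68-fold rise (log2 fold change 1.87 with an SE of 0.08, limma adjusted p = 5.41e-07). CDKN1A lies on chromosome 6 from 36644237 to 36655116.

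MDM2, on chromosome 12 from 69201952 to 69239324, had FPKM values of 22.2, 23.4 and 22.4 in the DMSO samples and 40.5, 42.6 and 44 in the BCT samples. The groups did not overlap and the spread within each was small, with means of 22.7 ± 0.647 and 42.4 ± 1.79 (SD, n = 3 each). The log2 fold change was 0.90, with a 95% confidence interval of 0.78 to 1.02 (adjusted p = 1.64e-06 from limma). This interval holds the threshold of 0.85, and MDM2 was not called in a test against that threshold, which called 3 of the 9 genes and 8.12% of all tested genes higher, or after a correction for GC content and transcript length, which lowered its log2 fold change to 0.65. This correction takes out any difference between the groups that follows GC content or length, also one due to BCT. A larger rise than that of MDM2 was seen in 13.1% of the tested genes.

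MDM4, on chromosome 1 from 204485507 to 204527248, had FPKM values of 4.70, 5.69 and 5.55 in the DMSO samples and 5.95, 6.13 and 6.40 in the BCT samples. The highest DMSO sample was close to the lowest BCT sample. The log2 fold change of 0.21 had a 95% confidence interval of 0.02 to 0.41 and an adjusted p of 0.044 (limma), past the FDR but far from the fold threshold. With 1 sample left out, MDM4 passed the FDR in 2 of 6 cases, and after the GC and length correction its log2 fold change was -0.06.

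For RRM2B the DMSO samples held 14.2, 13.9 and 12.6 FPKM and the BCT samples 16.0, 15.2 and 16.6 FPKM. Its log2 fold change was 0.23 (95% confidence interval 0.09 to 0.38, adjusted p = 0.00848 from limma). For SESN1 they held 7.89, 7.34 and 7.37 FPKM and 8.29, 8.97 and 8.71 FPKM, a log2 fold change of 0.20 (95% confidence interval 0.06 to 0.34). For both of these stress genes the groups did not overlap, as in 85.3% of all tested genes, and the intervals hold no change as large as the threshold. SESN1 passed the FDR (adjusted p = 0.0146 from limma), but in only 3 of 6 cases with 1 sample left out.

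ZMAT3 had the lowest level of the 9 genes. Its DMSO samples held 2.38, 2.63 and 2.30 FPKM and its BCT samples 2.92, 2.45 and 2.72 FPKM, and the groups overlapped. The log2 fold change of 0.14 had a 95% confidence interval of -0.10 to 0.38 (adjusted p = 0.233 from limma). ZMAT3 and PLK2, both with a p53 site of 0 mismatches in the window, thus had log2 fold changes of 0.14 and 3.09.

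TP53INP1 was the only one of the 9 genes with a lower mean after BCT. The DMSO samples held 8.87, 8.73 and 8.87 FPKM and the BCT samples 6.69, 6.25 and 6.60 FPKM, so every BCT sample lay below every DMSO sample. The log2 fold change was -0.43 (95% confidence interval -0.56 to -0.30, adjusted p = 0.000122 from limma), which passed the FDR but not the fold threshold. With all samples rescaled to the same FPKM sum it was 0.33, where the median of all genes was 0.72, and after the GC and length correction it was -0.63.

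**Figure D2:**
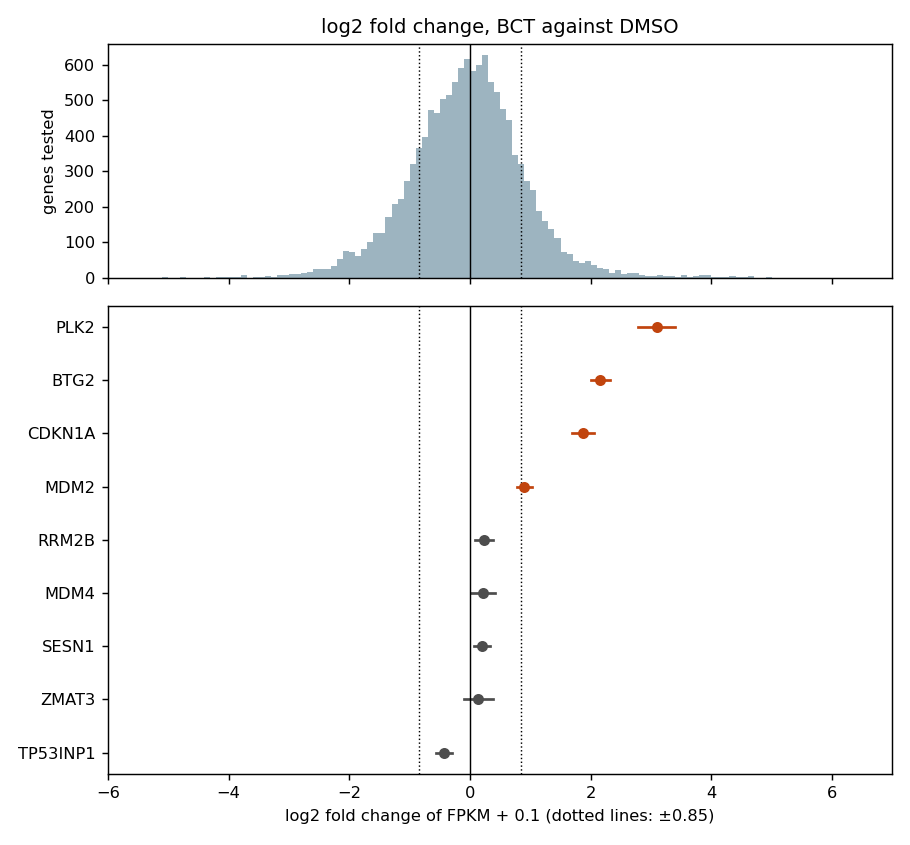
Distribution of the log2 fold change (BCT against DMSO, on log2(FPKM + 0.1)) over the 12729 genes tested (top, bins of 0.1, 6 genes lie outside the axis), and the log2 fold change of each of the 9 genes with its 95% confidence interval (bottom, genes called higher in orange, others in gray). PLK2, BTG2 and CDKN1A lie between 1.87 and 3.09, MDM2 at 0.90 has an interval that crosses the dotted line at 0.85, and the other 5 genes lie between -0.43 and 0.23.

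BCT changed the order of the levels. With DMSO the order was CDKN1A (49.3 FPKM), MDM2 (22.7), RRM2B (13.5), TP53INP1 (8.82), SESN1 (7.53), BTG2 (7.43), PLK2 (5.99), MDM4 (5.31) and ZMAT3 (2.44). The samples of SESN1 and BTG2 overlapped, as did those of PLK2 and MDM4, and the other neighbors did not. With BCT, CDKN1A (181.0 FPKM) was followed by PLK2 (52.5), MDM2 (42.4), BTG2 (33.7), RRM2B (15.9), SESN1 (8.66), TP53INP1 (6.51), MDM4 (6.16) and ZMAT3 (2.70). Here PLK2 and MDM2 overlapped, and so did TP53INP1 and MDM4. PLK2 thus moved from the seventh to the second place.

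The scale of FPKM was not the same in both groups. Over all genes, FPKM sums ranged from 1169649 to 1572321 in the DMSO samples but from 757534 to 799838 in the BCT samples, and MIR6087 alone held 43.5% to 55.3% of the sum with DMSO and 31.7% to 32.5% with BCT. Low values gave relative depths of 0.878 to 1 in the DMSO samples and 1.05 to 1.13 in the BCT samples. Rescaling to equal sums moved the median of all genes from -0.04 to 0.72 on the log2 scale, and with it 8 of the 9 genes were called higher and 0 lower, where 44.1% and 5.25% of all tested genes were. With MIR6087 left out of the sums, the median of all genes was 0.34 and the same 4 genes were called as in the deposited values, where 26.5% of all tested genes were called higher and 9.49% lower. A factor per sample moves all genes nearly alike, so values are also given relative to that median. FPKM values alone do not show whether the median gene itself changed. In the deposited values PLK2 was 3.13, CDKN1A 1.91, MDM2 0.94 and RRM2B 0.27 above the median and TP53INP1 was at -0.40. Quantile normalization, which is not such a factor, put PLK2 at 3.14, CDKN1A at 2.05, MDM2 at 0.91, RRM2B at 0.19 and TP53INP1 at -0.44 relative to its median.

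**Figure D3:**
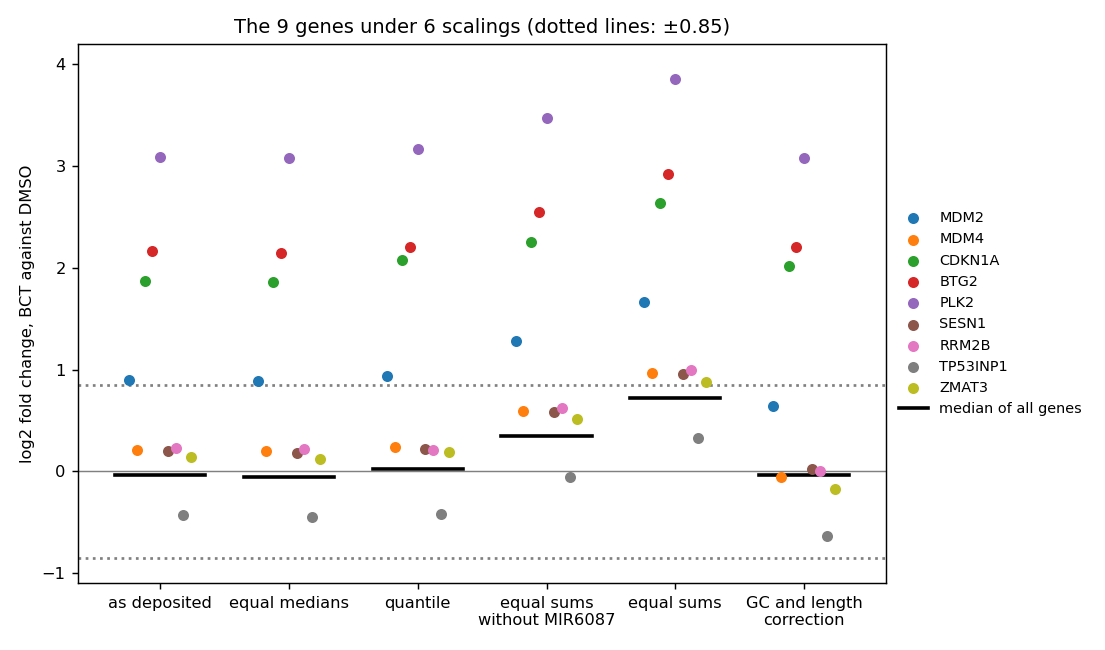
Log2 fold change of the 9 genes (points, 1 color per gene) and the median of all tested genes (black bars) in the deposited values, under 4 other scalings and after the GC and length correction, with dotted lines at ±0.85. The median of all genes moves from -0.04 to 0.72 with equal sums and the 9 genes move with it, whereas the GC and length correction moves MDM2 below the line at 0.85.

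GC content moved with the fold changes as well. In the quintile of the tested genes with the lowest GC content of the longest transcript, 29.2% to 40.3%, the median log2 fold change was 0.18, and in the quintile with the highest GC content, 58.0% to 85.5%, it was -0.30. MDM2, RRM2B, TP53INP1 and ZMAT3 lie in the lowest quintile, MDM4 and SESN1 in the next, BTG2 and PLK2 in the middle and CDKN1A in the highest. The correction fitted the difference between BCT and DMSO over all genes on GC content and length, and took this fit from the BCT samples. It thus cannot separate a technical bias from an effect of BCT that follows GC content or length. After the correction CDKN1A, BTG2 and PLK2 were at 2.02, 2.21 and 3.08, so these 3 rises were as large as before. SESN1 and RRM2B were at 0.02 and 0.01 and ZMAT3 at -0.17. CDKN1A, BTG2 and PLK2 were the only calls among the 9 genes after the correction, where 13.3% of all genes with a GC value were called higher and 16.7% lower.

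The ratio of a gene to a paralog in the same sample is free of any factor common to the sample, though not of a correction that differs between genes, such as that for GC content. The log2 ratio of MDM2 to MDM4 was 2.22, 2.02 and 1.99 with DMSO and 2.75, 2.78 and 2.76 with BCT, so the means differed by 0.69 and the groups were apart. In all 7 pairs examined the groups did not overlap. The groups were also apart for 85.3% of all tested genes taken singly, and the share over ratios of other gene pairs was not computed. A two-sided exact permutation test gave p = 0.1 for each pair, the smallest value that 3 against 3 samples allow (adjusted p = 0.1 over the 7 pairs).

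Some paralogs moved with their relatives and others did not. CDKN1B, which encodes the CDK inhibitor p27, rose from 92.0 ± 5.44 to 178.8 ± 2.83 FPKM (SD, n = 3 each), and the log2 ratio of CDKN1A to CDKN1B was -0.90 ± 0.10 with DMSO and 0.01 ± 0.17 with BCT. CDKN1A was therefore the less abundant of the pair with DMSO and about level with it after BCT. BTG1 rose from 37.3 ± 2.28 to 69.5 ± 2.0 FPKM and PLK3 from 4.19 ± 0.256 to 15.2 ± 1.54 FPKM, and the ratios BTG2/BTG1 and PLK2/PLK3 were both 1.26 higher on the log2 scale with BCT. The paralogs thus rose less than BTG2 and PLK2 in these samples.

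In the sestrins the order was the opposite. SESN2, a p53 target that is also induced by other stress pathways, held 9.32, 9.80 and 9.42 FPKM in the DMSO samples and 27.2, 31.4 and 27.9 FPKM in the BCT samples. The log2 fold change of SESN2 was 1.59, with an SE of 0.07, against 0.20 for SESN1. The log2 ratio of SESN1 to SESN2 was -0.33 ± 0.09 with DMSO and -1.72 ± 0.07 with BCT (SD, n = 3 each), a difference of -1.39. RRM2, the ribonucleotide reductase subunit of S phase, had 104.7 ± 3.67 FPKM with DMSO and fell to 32.3 ± 7.14 FPKM (log2 fold change -1.71). The log2 ratio of RRM2B to RRM2 was -2.92, -2.93 and -2.99 with DMSO and -1.34, -0.94 and -0.71 with BCT, a shift of 1.95. In the deposited values, where RRM2B had a log2 fold change of 0.23, most of this shift lay in RRM2. With equal FPKM sums RRM2B was at 0.998, so how the shift divides between both genes depends on the scaling. TP53INP2, an autophagy factor, was at 9.33 ± 0.197 FPKM with DMSO and 11.8 ± 0.480 FPKM with BCT, and the log2 ratio of TP53INP1 to TP53INP2 was lower with BCT by a difference of -0.76.

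**Figure D4:**
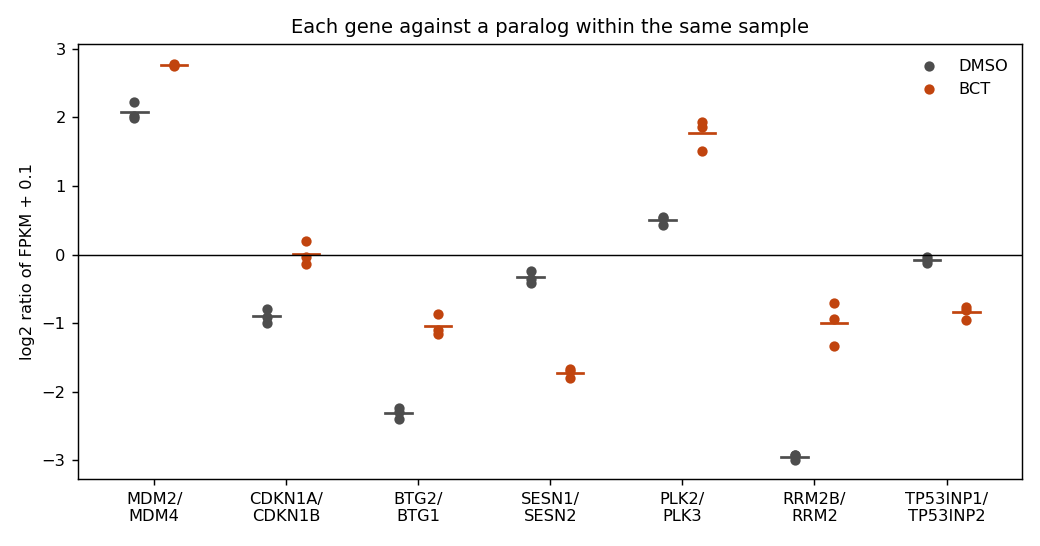
Log2 ratio of FPKM + 0.1 between each of 7 genes and a paralog in the same sample (points), with the group means (lines), for DMSO (gray) and BCT (orange). The groups are apart in all 7 pairs, with MDM2/MDM4, CDKN1A/CDKN1B, BTG2/BTG1, PLK2/PLK3 and RRM2B/RRM2 higher and SESN1/SESN2 and TP53INP1/TP53INP2 lower with BCT. Of all tested genes taken singly, 85.3% are apart.

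Of all 16 paralogs listed, 6 were called higher and 2 lower, where 13.9% and 17.8% of all tested genes were, with a median log2 fold change of 0.37. PLK3 at 1.83 and SESN2 at 1.59 had the largest rises, and RRM2 at -1.71 and CDKN1C, which encodes the CDK inhibitor p57, at -1.40 the largest falls. TOB1, a relative of BTG2, had a log2 fold change of -0.12 and ZMAT2 of 0.19.

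Other p53 targets, listed by hand from general knowledge, were split too. In the list of arrest and feedback, 8 of 15 tested genes were called higher (13.9% of all genes) and 2 lower (17.8% of all genes), with a median log2 fold change of 0.90. PHLDA3, an inhibitor of AKT, rose from 15.03 ± 0.727 to 67.1 ± 3.17 FPKM (SD, n = 3 each), and GADD45A, a stress sensor of the G2/M checkpoint, from 13.7 ± 0.85 to 55.4 ± 8.63 FPKM. CCNG2, a cyclin of quiescent cells, fell from 5.50 ± 0.612 to 1.39 ± 0.0223 FPKM. The 2 genes nearest to no change were RNF144B at -0.04 and TOB1.

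Among the targets that act in cell death, 8 of 18 tested genes were called higher and 3 lower, beside 13.9% and 17.8% over all genes, with a median of 0.81. Besides PHLDA3, which is on this list too, AEN, an apoptosis-enhancing nuclease, rose from 18.7 ± 0.312 to 65.8 ± 9.35 FPKM (SD, n = 3 each). ZNF79 had a log2 fold change of 1.76, and TP53I3, a quinone oxidoreductase, of 1.60, at levels of only 1.04 ± 0.0721 FPKM with DMSO and 3.38 ± 0.403 FPKM with BCT. BAX, the effector of mitochondrial permeabilization, was at 85.1 ± 2.55 FPKM with DMSO and 94.3 ± 6.15 FPKM with BCT, a log2 fold change of 0.15, and the death receptor gene TNFRSF10A was also at 0.15.

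The targets of repair, redox control and metabolism had a median of -0.29, with 5 of 22 called higher and 8 lower, against shares of 13.9% and 17.8% in all tested genes. GDF15, a secreted stress cytokine, rose from a mean of 31.6 ± 0.418 FPKM to one of 799.2 ± 66.9 FPKM (SD, n = 3 each). Its log2 fold change of 4.65 was larger than that of any of the 9 genes. ALDH4A1, a mitochondrial enzyme of proline breakdown, fell by 2.68 and PCNA, the sliding clamp of replication, by 2.01 on the log2 scale. The noncoding RNA TP53TG1 was at 0.02 and ABHD4 at 0.21. The median of this list was above 0 with equal sums, with equal sums without MIR6087, with quantile normalization and after the GC and length correction. Over the 3 lists together, 19 of 52 tested genes were called higher and 13 lower (13.9% and 17.8% of all tested genes), with a median of 0.23, the same rounded value as that of the 9 genes. PCNA and RRM2, called lower here, are also on the list of genes lowered through p21 that is described below.

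Of 29 tested regulators of p53, 7 were called higher and 3 lower, where the shares of all tested genes were 13.9% and 17.8%, with a median log2 fold change of 0.22. The deacetylase SIRT1 rose from 10.2 ± 0.332 to 43.7 ± 5.90 FPKM (SD, n = 3 each), and the acetyltransferases CREBBP and EP300 had log2 fold changes of 1.64 and 1.60. The 3 genes called lower were the checkpoint kinase CHEK2 at -1.45 and, named here after their values were seen, RPL23 at -1.22 and RPL5 at -0.88, both genes of ribosomal proteins that can bind MDM2. The deubiquitinase USP10 was at -0.06.

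p21 lowers the expression of many cell cycle genes through the DREAM complex. Of 40 such genes, 20 were called lower and 0 higher, where 17.8% of all tested genes were called lower and 13.9% higher. Their median log2 fold change was -0.85. MCM3 and MCM6, subunits of the replicative helicase, were at -2.13 and -2.00, PCNA at -2.01, and E2F1, a transcription factor of S phase entry, at -2.08. The mitotic kinases AURKA at 0.02 and NEK2 at 0.04 were the 2 genes nearest to no change. With equal sums the median of all genes was 0.72, and 5.25% of them were called lower and 44.1% higher. In that setting 9 of the 40 genes were called lower and 1 higher, and the median of the 40 was -0.08. The rise of CDKN1A and the fall of these genes were measured in the same samples, and their relation was not tested.

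The genes with the profile most like that of MDM2 over the 6 samples, by the root mean square difference of centered log2(FPKM + 0.1) values, were PPP4R3B (0.0178), SPECC1L (0.0211) and HEXIM1 (0.0219). PPP4R3B, for example, was at 21.4 ± 0.341 FPKM with DMSO and 40.5 ± 2.18 FPKM with BCT. For CDKN1A they were PLK3 (0.0268), DDIT3 (0.0463) and OTUD7B (0.0621). DDIT3, a transcription factor of the integrated stress response, was at 76.0 ± 1.44 FPKM with DMSO and 288.9 ± 28.7 FPKM with BCT. Over 6 samples of 2 groups this likeness rests mainly on a similar difference between the groups.

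Of 8 markers of luminal prostate epithelium, 7 were at or above 1 FPKM in every sample, as the label of the line implies. Of the 8, 4 were called lower and 2 higher, where 17.8% and 13.9% of all tested genes were. KLK2, KLK3, TMPRSS2 and STEAP2 were called lower, with log2 fold changes of -1.61, -2.95, -1.59 and -1.65, and the keratin genes KRT8 and KRT18 higher, at 1.17 and 1.72. HOXB13 at -0.45 and FOXA1 at -0.08 were not called, and the groups overlapped for FOXA1. The marker below 1 FPKM in some samples was KLK3, which was at 8.73 ± 0.911 FPKM with DMSO and 1.05 ± 0.238 FPKM with BCT (SD, n = 3 each). The summed level of 6 fibroblast markers was 2.61 to 2.79 FPKM with DMSO and 5.88 to 7.11 FPKM with BCT, that of 6 leukocyte markers 2.94 to 3.83 and 5.97 to 9.10 FPKM, and that of 4 endothelial markers at most 0.081 FPKM. In the first of these lists 4 genes, in the second 5 and in the third all 4 stayed below 1 FPKM in every sample. COL1A1, at 1.43 ± 0.175 and 5.83 ± 0.690 FPKM, and CD68, at 2.50 ± 0.584 and 6.39 ± 1.63 FPKM, made up most of the first 2 sums with BCT and were both called higher. The part of these markers in the results was not tested. In bulk RNA a change in the number of cells of a kind and in the RNA per cell cannot be told apart.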

How the data were processed

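RNA was measured in 6 samples of 22RV1 cells (TruSeq libraries, HiSeq instrument). The authors trimmed the reads with Trimmomatic (0.38 in the submitters' processing notes), aligned them to hg19/GRCh37 with HISAT2 and deposited FPKM values of 26255 genes per sample, made with StringTie per the study's methods. The notes name HTSeq instead, and the gene annotation is not given in the sources used here. FPKM holds no read counts. Relative depths were estimated from genes of 0.02 to 0.15 FPKM, and no count test was run.

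limma 3.58.1 (R 4.3.3, eBayes with trend) compared log2(FPKM + 0.1) between 3 BCT and 3 DMSO samples over 12729 genes whose mean reached 1 FPKM, with Benjamini-Hochberg adjustment over all of them. On this scale the change of low genes is understated. The study gives a fold threshold of 0.85 and an FDR of 0.05 in one place and 0.01 in another, and names no gene-level test. The limma step was tested on simulated data with known changes. The simulation changed only a small share of the genes and had the same scale in both groups, unlike these data, so it does not cover these features.

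The members and lists were chosen with earlier results of these data known. The lists come from general knowledge and share genes. Of each list the text names up to 4 called genes with the largest absolute log2 fold change and the 2 nearest to 0, and for MDM2 and CDKN1A the 3 genes most alike. Some genes that this rule names are not reported here.

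Printed gene starts are the deposited ones plus 1, because more of them then match an edge of an annotated transcript (GENCODE 44, on GRCh37). They match for 11605 of 25960 genes, against 1280 without it, and for 4 of the 9 genes. Sites were read from GRCh37, and GC content and length from the longest GENCODE transcript, which 97.4% of the tested genes had. No other deposited gene overlaps the 9 genes. Sites on chromosome 8 are not printed.

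The closing section gives the effect of other pseudocounts, filters, scalings, FDR and variance settings, of a test against the fold threshold, of a replicate block, of GC content and length, and of leaving out each sample.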

Additional observations from a re-analysis of the deposited data

How the results depend on the processing

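CDKN1A, BTG2 and PLK2 were called higher in all 21 settings and MDM2 in 19. The exceptions for MDM2 were the test against the threshold (log2 fold change 0.90) and the GC and length correction (0.65). That correction gave MDM4 -0.057 and ZMAT3 -0.17. With it the medians were 0.020 for the 9 genes, 0.45 for the paralogs, 0.75 for the arrest targets, 0.016 for the repair targets and 0.017 for the regulators. The correction called 1 arrest target lower and 6 higher, and 5 regulators lower and 7 higher. Of all genes with a GC value, 16.7% were called lower and 13.3% higher. With equal sums MDM4 (0.97), SESN1 (0.96), RRM2B (0.998) and ZMAT3 (0.88) were called too, and TP53INP1 was at 0.33. All tested genes then split into 5614 higher and 668 lower. The 9 genes had 8 called higher and a median of 0.998, and the paralogs 11 higher, 1 lower and a median of 1.13. The arrest targets had 9 higher, 1 lower and a median of 1.67, and the cell death targets 14 higher, 0 lower and 1.57. The repair targets had 9 higher, 5 lower and 0.47, the regulators 15 higher, 0 lower and 0.99, and the p21 genes 1 higher, 9 lower and -0.082. With equal sums without MIR6087 the split was 3370 higher and 1208 lower. The medians were 0.62 (9 genes), 0.75 (paralogs), 1.28 (arrest), 1.19 (cell death), 0.092 (repair), 0.61 (regulators) and -0.46 (p21 genes). Called lower were 1 arrest target, 1 cell death target, 1 regulator and 13 p21 genes, and called higher were 9, 11, 10 and 0 genes of these lists. Quantile normalization gave the repair targets a median of 0.030. It called 1 arrest target lower and 9 higher, and 1 regulator lower and 7 higher, where 2003 of all tested genes were called lower and 1903 higher. A pseudocount of 1 gave the arrest targets a median of 0.84. Without the filter 2657 genes were called higher, and the medians were 0.79 (arrest) and 0.15 (regulators). With a mean of at least 5 FPKM, 1150 genes were called higher and 1577 lower, the latter with 1 paralog, 1 arrest target and 1 cell death target. The medians were then 0.57 (9 genes) and 0.077 (regulators), over fewer genes. The test against the threshold called 1033 genes higher and 1392 lower, with 2 paralogs and 5 arrest targets higher and 1 arrest and 1 cell death target lower. The causes of the other shifts were not tested.

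With 1 sample left out, the median of the 9 genes was 0.21 to 0.27, that of the regulators 0.17 to 0.25 and that of the p21 genes -0.95 to -0.78, and 1684 to 1932 of all tested genes were called higher and 2146 to 2488 lower. Deviations from the group means correlated at 0.12, 0.03 and 0.03 between samples with the same number, so the numbers were not taken to pair the samples. A replicate block called 1767 genes higher and 2266 lower and left the calls of the 9 genes as they were. FPKM without counts limits the precision of low genes such as ZMAT3, and 3 samples a group limit every test.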
